A study of Mus musculus with 3 samples.

Results

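The genes described here encode enzymes that convert phosphatidate and diacylglycerol into each other, namely diacylglycerol kinases, lipins and membrane lipid phosphatases. The list of 9 genes was Dgka, Dgkd, Dgkz, Dgkg, Dgke, Lpin1, Lpin2, Plpp1 and Plpp3, and every probe set whose only gene symbol was one of these was taken. Of the 9 genes, 8 had such a probe set, out of 18194 genes named on the array, and they were covered by 21 of its 45101 probe sets. Dgkg had 0 probe sets of that kind in the annotation used and is not analysed here. The genes were chosen by their function and with the signal ratios between these same arrays in view, Q84E over wild-type ATP11A above all, so the values below are descriptions.

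The arrays held total RNA of WR19L, a T-lymphoma cell line from BALB/c mice, grown without treatment. The first array was of parental cells. The others were of DKO cells, which are WR19L cells made deficient in flippase activity, with stable expression of human ATP11A, either of wild-type sequence or as its Q84E mutant. Flippases such as ATP11A carry phospholipids inward across the plasma membrane. There was 1 array per group, so values have no replicate and groups could not be tested against each other. A DKO line without a transgene is named in the design and is not analysed here. In a ratio over parental cells, the knockout, the transgene and the derivation of the line therefore cannot be told apart. In a ratio of Q84E over wild-type ATP11A, the mutation cannot be told apart from other differences between these lines or their cultures.

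Phosphatidate and diacylglycerol are lipids that differ by a single phosphate. Diacylglycerol kinases add it and thereby end the diacylglycerol signal that recruits RasGRP and protein kinase C proteins to the membrane after T cell receptor engagement. Lipins are soluble, magnesium-dependent phosphatases that remove it on the way to phosphatidylcholine, phosphatidylethanolamine and triacylglycerol. The membrane lipid phosphatases of the Plpp family do not need magnesium, have an active site that faces the cell exterior or an organelle lumen, and also act on lysophosphatidate, sphingosine 1-phosphate and ceramide 1-phosphate.

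The values are MAS5 signals, a brightness for each probe set. A signal under the 50th percentile of its array, at 50.3, 50.5 and 55.5 for parental, wild-type and Q84E arrays, was treated as not measured and set to that floor before a ratio was taken. Each gene was represented by its brightest probe set, and a gene was compared if that probe set reached the floor on at least 1 array, which held for 11596 genes and for all 8 measured members. The error attached to a log2 ratio below is the SD of the disagreement between probe sets of the same gene, scaled to a single probe set, and covers no difference between cultures. Dim genes, from the 50th to the 75th percentile, had an SD of 0.31 to 0.35, those from the 75th to the 90th one of 0.17 to 0.19, and brighter ones 0.096 to 0.11. The brighter mouse Atp11a probe set gave 478 in parental cells, 253 with wild-type and 244 with Q84E ATP11A, which checks neither the edit nor the human transgene. Of 10 T cell markers with a probe set, 8 lay above the floor on every array, at a summed signal of 31802 to 36671, while Cd3e and Cd5 lay under it on all 3. Markers of B cells, myeloid cells, erythroid cells, fibroblasts and epithelium summed to between 138 and 381 per list and array. Some of them also lay above the floor, per array 3 to 4 of 6 B cell and 2 to 3 of 8 myeloid markers. For the erythroid and megakaryocyte list it was 2 to 3 of 4, for fibroblasts 1 of 6 and for epithelium 1 to 2 of 5. The arrays of parental and Q84E cells had the higher T cell sums, and the part of such differences in the results below was not tested.

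In Q84E cells, Plpp3 and Dgka were at least 2-fold higher than in wild-type ATP11A cells, and Lpin1 was 1.94-fold higher. Plpp1, a lipid phosphatase of the same family as Plpp3, was 1.40-fold lower in a probe set that can share sequence with other transcripts, and the other 4 genes lay between 1.08-fold lower and 1.18-fold higher. Of the 8 members, 2 were at least 2-fold higher, against a background of 1.03% of all compared genes, and 3 were at least 1.5-fold higher, against 5.78%. At least 2-fold lower were 0 of 8, with 0.319% in the background, and at least 1.5-fold lower were also 0 of 8, with 1.97%. These comparisons are the ones from which the list was chosen, so the counts are descriptions. The median log2 ratio of the members was 0.23, beside 0.046 over all compared genes. Scaling the arrays to a common median in place of their trimmed mean lowered the ratios of Q84E over wild-type by 0.14 on the log2 scale, left Plpp3 as the only member past 2-fold, and turned the split of all genes past 2-fold from 119 higher and 37 lower to 65 and 66. With quantile normalization that split was 68 and 64.

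**Figure D1:**
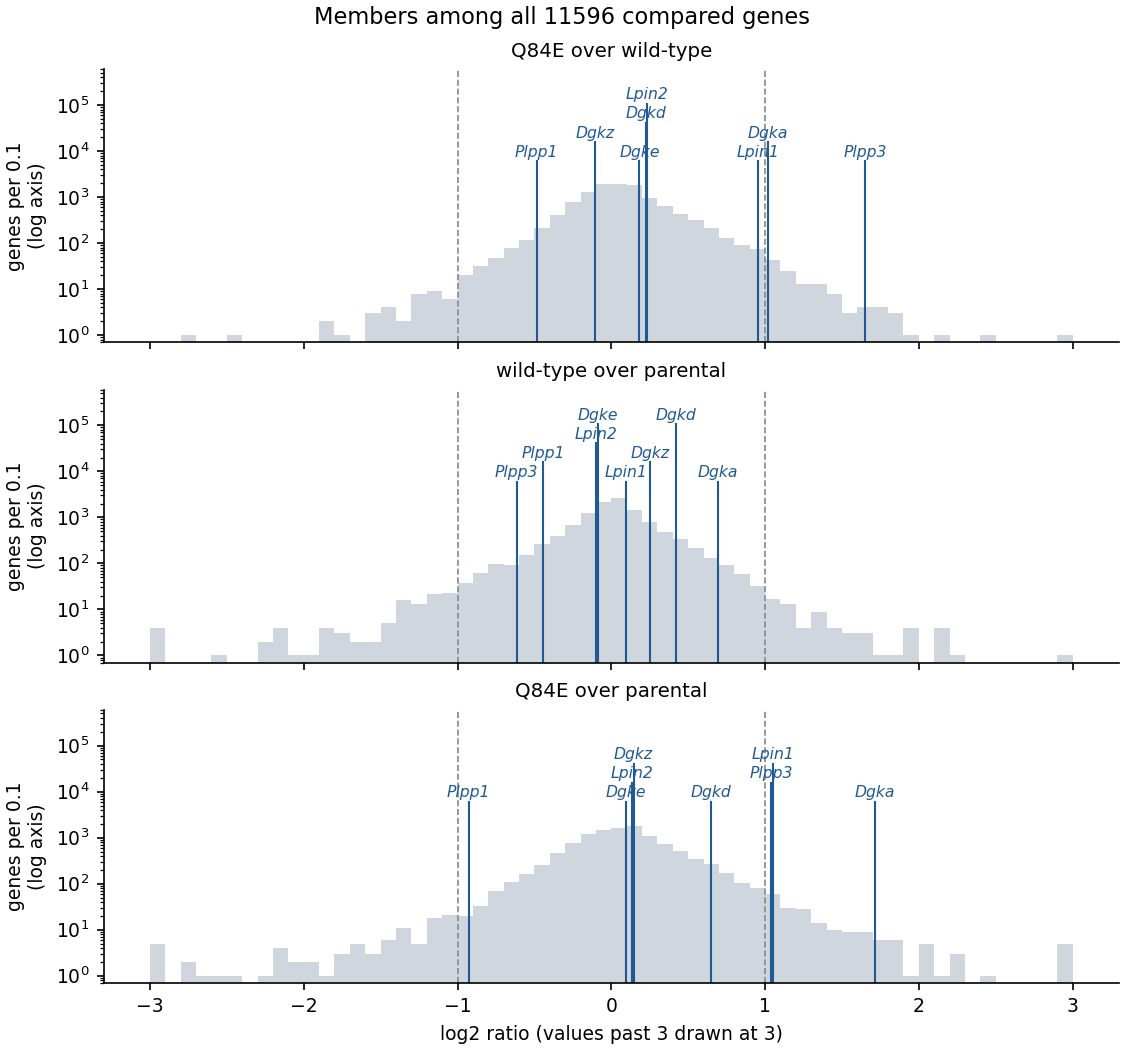
Histograms of the log2 ratio of all 11596 compared genes (grey, log count axis) in each comparison, with a blue line at each of the 8 measured members and dashed lines at 2-fold. Plpp3 and Dgka lie past 2-fold for Q84E over wild-type, 0 members do for wild-type over parental, and Dgka, Lpin1 and Plpp3 do for Q84E over parental.

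Among the kinases, Dgka differed most between the arrays. It encodes diacylglycerol kinase alpha, which limits RasGRP1 signalling in T cells and is abundant in resting and anergic ones. Its single probe set gave a signal of 979.9 in parental, 1585 in wild-type ATP11A and 3215 in Q84E cells. Parental cells were thus lowest and Q84E cells highest, with each step larger than the probe set error. The log2 ratio was 0.69 ± 0.18 (probe set SD) for wild-type over parental, 1.02 ± 0.17 for Q84E over wild-type and 1.71 ± 0.19 for Q84E over parental cells, the last a 3.28-fold difference. It ranked 27 from the top of the 11596 compared genes in Q84E over parental and 105 in Q84E over wild-type. With no second probe set for Dgka, these values rest on that probe set alone, and under a common median the Q84E over wild-type ratio was 0.88.

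Dgkd encodes diacylglycerol kinase delta, a type II isoform that carries a pleckstrin homology domain. Its brightest probe set gave 723 in parental, 969 in wild-type ATP11A and 1134 in Q84E cells, the same order as Dgka over a narrower range. The log2 ratio of Q84E over parental was 0.65 ± 0.19, and its other 3 probe sets gave 0.52, 0.63 and 0.63. All 4 probe sets were thus higher in Q84E than in parental cells by a similar amount. Under a common median the brightest was at 0.51, which is under 1.5-fold. They did not place the wild-type array alike. The log2 ratio of wild-type over parental was 0.42 and 0.46 in a first pair of probe sets and -0.0042 and -0.14 in the other pair, so where wild-type ATP11A cells stand for Dgkd is not settled by these data.

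Dgkz and Dgke differed little in their brightest probe sets. Dgkz encodes diacylglycerol kinase zeta, the isoform that, with alpha, does most of the damping of T cell receptor signals. Its brightest probe set gave 5922, 7050.0 and 6548 in parental, wild-type and Q84E cells, and its other probe set 756, 992 and 859. Both were highest in wild-type ATP11A cells, at log2 ratios over parental of 0.25 ± 0.096 and 0.39 ± 0.18. Dgkz was the only member with its highest level on the wild-type array, where 26.2% of all compared genes had theirs. For Q84E over wild-type its log2 ratio was -0.11 ± 0.097, about the size of the error. Dgke encodes diacylglycerol kinase epsilon, which prefers diacylglycerol with an arachidonoyl chain. Its brightest probe set gave 864, 814 and 924, and its 3 probe sets had log2 ratios of 0.18, 0.16 and 0.18 for Q84E over wild-type, each within about 1 SD. For wild-type over parental they ranged from -0.087 to 0.22, which straddles 0. For Q84E over parental the brightest had a ratio of 0.097 ± 0.19, which turned to -0.046 under a common median. The dimmer ones gave 0.38 ± 0.19 and 0.30 ± 0.35, so the probe sets did not give the same size of difference there.

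**Figure D2:**
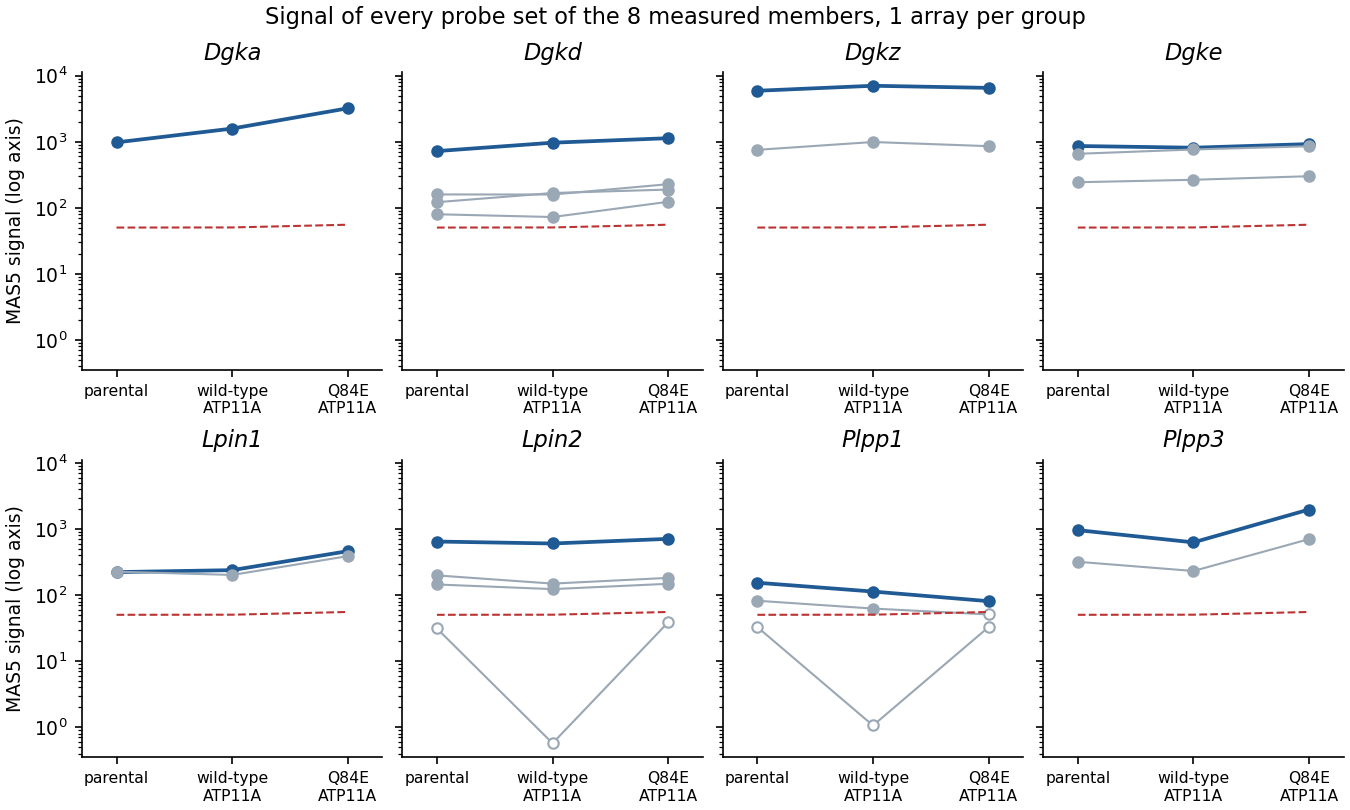
MAS5 signal (log axis) of each of the 21 member probe sets on the 3 arrays, with the brightest probe set of a gene in blue, the others in grey, signals under the floor as open points and the floor of each array as a dashed line. Dgka climbs from 979.9 to 3215, both Plpp3 probe sets dip in wild-type ATP11A cells and peak in Q84E cells, and Plpp1 declines towards the floor.

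Of the lipins, Lpin1 stood higher in Q84E cells and Lpin2 did not stand apart. Lpin1 encodes lipin 1, a phosphatidate phosphatase that also acts in the nucleus as a transcriptional coactivator and is restrained by mTORC1. Its probe sets gave 223 and 226 in parental cells, 239 and 202 in wild-type ATP11A cells, and 462 and 389 in Q84E cells. The Q84E array was the high one in both, while the parental and wild-type arrays differed by less than the error. The log2 ratio of Q84E over wild-type was 0.95 ± 0.31 in the brighter and 0.95 ± 0.31 in the dimmer probe set. For Q84E over parental it was 1.05 ± 0.35 and 0.78 ± 0.35, and for wild-type over parental 0.099 ± 0.35 and -0.16 ± 0.35.

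Lpin2 encodes lipin 2, the phosphatidate phosphatase isoform best known from liver and macrophages. Its brightest probe set gave 647, 604 and 710.2 in parental, wild-type and Q84E cells. The 3 probe sets above the floor had log2 ratios of 0.23, 0.29 and 0.27 for Q84E over wild-type, close to each other and, for the brightest, only slightly past an error of 0.17. For Q84E over parental they were 0.13, -0.12 and 0.034, on both sides of 0. With the mean of all probe sets, which takes in one under the floor on every array, the Lpin2 ratio of Q84E over wild-type was 1.71.

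Of the membrane phosphatases, Plpp3 was higher and Plpp1 lower in Q84E than in parental cells, while both lay below 0 for wild-type over parental. Plpp3 encodes lipid phosphate phosphatase 3, which breaks down extracellular lysophosphatidate. Its brighter probe set gave 962 in parental, 629 in wild-type ATP11A and 1976 in Q84E cells, and its dimmer probe set gave 319, 232 and 704. In both, wild-type ATP11A cells were lowest and Q84E cells highest. The log2 ratio of Q84E over wild-type was 1.65 ± 0.17 and 1.60 ± 0.31, which is 3.14-fold in the brighter probe set and ranked 13 from the top of the 11596 genes. That of Q84E over parental was 1.04 ± 0.19 and 1.14 ± 0.35. That of wild-type over parental was -0.61 ± 0.18 and -0.46 ± 0.35, so Plpp3 lay on opposite sides of the parental level in the 2 transgenic lines, a contrast that was not tested.

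Plpp1 encodes lipid phosphate phosphatase 1, a widely expressed member of the family. Its brightest probe set, one of the kind that can share sequence with other transcripts, gave 154 in parental, 113 in wild-type ATP11A and 80.9 in Q84E cells. The next gave 82.1 and 62.5 in parental and wild-type cells and lay under the floor in Q84E cells. Both ran in the order parental, wild-type ATP11A, Q84E, the reverse of Dgka. The log2 ratio of Q84E over parental was -0.93 ± 0.35, a 1.90-fold lower level, and in the dimmer probe set the level was at least 1.48-fold lower. For Q84E over wild-type the ratio was -0.48 ± 0.31 and for wild-type over parental -0.44 ± 0.35, so neither step by itself was far past the error. Without probe sets of the shared kind, Q84E over parental was -0.56 and Q84E over wild-type -0.17, both bounds, and with the mean of all probe sets they were -0.42 and 0.14. These signals are near the floor, and Plpp1 was the only member that did not reach the 75th percentile on any array.

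**Figure D3:**
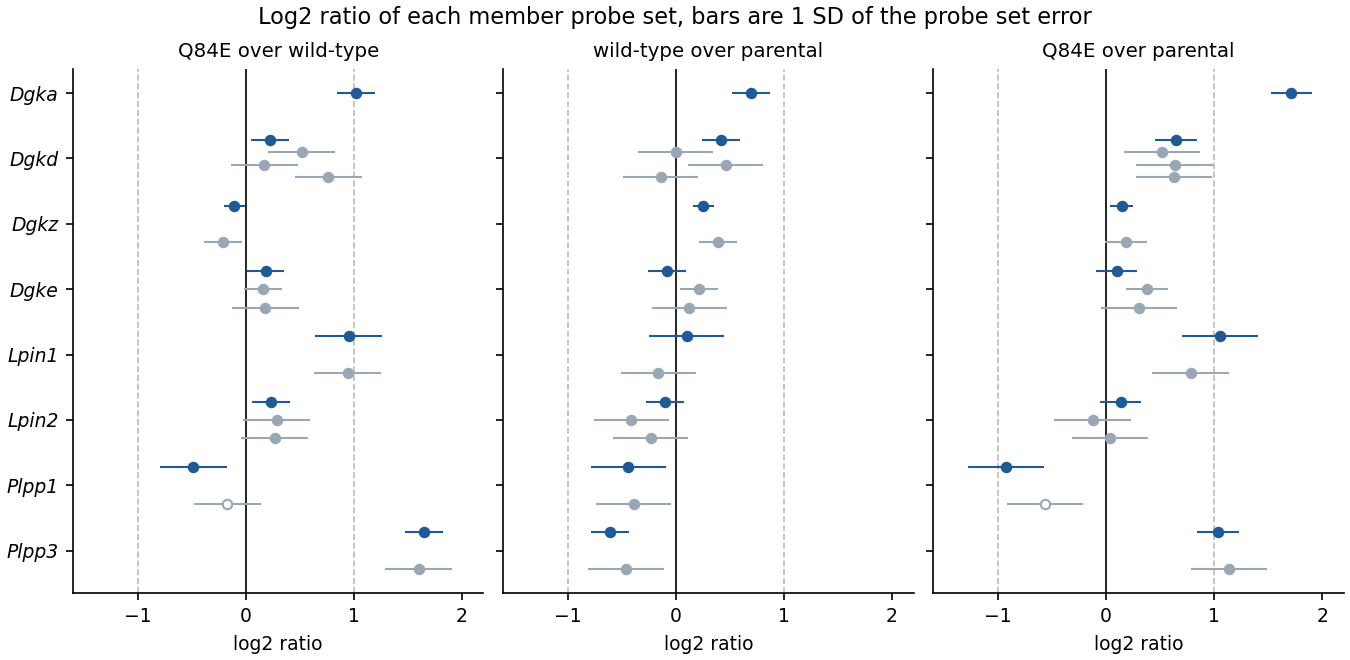
Log2 ratio of each member probe set in the 3 comparisons, with horizontal bars of 1 probe set SD, the brightest probe set in blue, the others in grey, bounds as open points and dashed lines at 2-fold. The probe sets of Plpp3 and of Lpin1 lie within each other's bars for Q84E over wild-type, while Dgkd probe sets spread from 0.17 to 0.77.

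Set by array, 6 of the 8 members, Dgka, Dgkd, Dgke, Lpin1, Lpin2 and Plpp3, had their highest level in Q84E cells, and 45.1% of all compared genes did. Under a common median these were 4 of 8, without Dgke and Lpin2, and 24.4% of all genes. Parental cells held the highest level of Plpp1 alone, beside 28.6% of all genes, and the lowest of Dgka, Dgkd, Dgkz and Lpin1, beside 42.6%. Wild-type ATP11A cells held the lowest of Dgke, Lpin2 and Plpp3, beside 30.1%. These places are those of the brightest probe set of each gene. The dimmer Lpin1 probe set and some of Dgkd were lowest in wild-type ATP11A cells, and the dimmer ones of Dgke in parental cells. A dimmer Lpin2 probe set was highest in parental cells, at 199 against 182 in Q84E cells. Of the 18 probe sets above the floor on all arrays, 14 were highest in Q84E cells, 2 in wild-type ATP11A cells and 2 in parental cells. Several of these probe sets belong to the same gene, and the share over all probe sets was not computed. Between wild-type ATP11A and parental cells, 0 of 8 members were at least 2-fold higher, beside 0.561% of all genes, and 0 of 8 at least 2-fold lower, beside 0.888%. At 1.5-fold, Dgka was higher, with 3.51% of all genes, and Plpp3 was lower, with 3.56%. The members' median log2 ratio there was 0.0060, beside 0.0057 over all genes.

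Between Q84E and parental cells, Dgka, Lpin1 and Plpp3 were at least 2-fold higher, 3 of 8 members beside 1.63% of all genes. At least 1.5-fold higher were 4 of 8, with Dgkd added, beside 7.36%, and at least 1.5-fold lower was Plpp1, 1 of 8 beside 2.94%. At least 2-fold lower were 0 of 8 members, beside 0.793%. The members' median log2 ratio was 0.40, beside 0.068 over all genes. The 3 comparisons share arrays in pairs, so they are not independent of each other. Under a common median Dgka alone stayed past 2-fold higher, with Lpin1 at 0.91 and Plpp3 at 0.90 on the log2 scale, Dgkd fell under 1.5-fold, and Plpp1 came past 2-fold lower at -1.07. Lpin1 was also under 2-fold with quantile normalization, at 0.97, and with the mean of all probe sets, at 0.92. With that mean, and without _x_at and _s_at probe sets, Plpp1 was under 1.5-fold lower, at -0.42 and -0.56.

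Promoter windows were read from RefSeq on the GRCm38.p6 build for 8 of the 9 genes, 14 windows in all since Dgka had 4 start sites, Lpin2 had 3 and Dgkz had 2. A table entry for Plpp1 was not among them. The window used here is the 250 bases before each start site. Shown are those of Plpp3, Dgka and Lpin1, the genes that were highest in Q84E cells by the widest margin, 5′ to 3′ on the gene's strand. Capitals mark a FOXO-type motif. The Dgka window is the one of its 4 that holds a motif in capitals, and the Lpin1 window is the only one listed.
Plpp3, chr4:105157097-105157346, plus strand: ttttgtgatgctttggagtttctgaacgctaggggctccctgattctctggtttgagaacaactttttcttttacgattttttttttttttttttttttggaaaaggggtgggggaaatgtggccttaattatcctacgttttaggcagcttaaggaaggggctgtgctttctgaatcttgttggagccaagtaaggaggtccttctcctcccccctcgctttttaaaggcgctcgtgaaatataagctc
Dgka, chr10:128737613-128737862, minus strand: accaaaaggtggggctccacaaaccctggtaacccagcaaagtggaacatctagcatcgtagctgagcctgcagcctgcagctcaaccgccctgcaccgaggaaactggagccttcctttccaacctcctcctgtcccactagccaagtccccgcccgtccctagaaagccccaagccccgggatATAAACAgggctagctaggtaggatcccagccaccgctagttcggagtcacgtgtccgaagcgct
Lpin1, chr12:16610967-16611216, minus strand: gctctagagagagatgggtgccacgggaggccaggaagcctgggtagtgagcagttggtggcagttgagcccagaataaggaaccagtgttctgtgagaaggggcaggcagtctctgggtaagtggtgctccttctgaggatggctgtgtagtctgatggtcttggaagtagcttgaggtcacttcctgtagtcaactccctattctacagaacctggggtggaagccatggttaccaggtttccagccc

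Forkhead factors of the FOXO family bind sequences around TAAACA and are known regulators of genes of quiescent lymphocytes. The motifs GTAAACA and ATAAACA were searched on both strands, and 3.17% and 4.16% of all 32851 windows of this length hold them. Among the member windows, ATAAACA lay 65 to 59 bases before the start site in the Dgka window shown, and on the opposite strand of the Dgkg window. GTAAACA lay 138 to 132 bases before a start of Lpin2, a gene whose ratios were small. Neither motif was found in the windows of Plpp3 or Lpin1, so the genes that were high together in Q84E cells do not share it within these bases. The E-box CACGTG, in 6.02% of all windows, was found once each in Dgka, Dgkg and Lpin2, in the Dgka window 17 to 12 bases before the start. The NFAT-type sequence GGAAAA, in 20.4% of windows, lay 151 to 146 bases before the start of Plpp3 and 57 to 52 bases before the outermost start of Dgka. The hypoxia element core ACGTGC, in 4.92% of windows, was found in the Dgkg window, overlapping its E-box. The amino acid response sequence TGATGNAAT, in 0.816% of windows, was found in 0 of the 14. A match is a description of these letters and not a binding site.

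The member with the widest range over the arrays was Dgka, at 1.71 on the log2 scale, followed by Plpp3 at 1.65. Among 6891 other genes that reached the 75th percentile on at least 1 array, those whose 3 levels followed Dgka most closely, by Euclidean distance between log2 levels centred on each gene's mean, were Vsir at a distance of 0.14, Brat1 at 0.14, Slc2a8 at 0.18, Foxo3 at 0.19 and Txnip at 0.21. Vsir, which encodes the inhibitory receptor VISTA, gave 213, 393 and 754 in parental, wild-type and Q84E cells, but its other probe set had a log2 ratio of wild-type over parental of -0.68. The 4 probe sets of Brat1 ranged from -0.13 to 1.06 in that comparison and from 0.11 to 0.97 for Q84E over wild-type. Foxo3, which encodes a forkhead factor, gave 255, 346 and 818, although its other measured probe set had a log2 ratio of Q84E over wild-type of 0.15. Txnip, which encodes thioredoxin-interacting protein, gave 304, 441 and 808, with its 2 probe sets at log2 ratios of Q84E over wild-type of 0.87 and 1.30. The likeness is over 3 arrays only.

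The other genes of these pathways were taken from 8 lists, by their step. Of 6 further diacylglycerol kinases listed, 5 had a probe set and 2 were compared, Dgkh and Agk, with log2 ratios of Q84E over wild-type of 0.043 and -0.029. The 3 probe sets of Agk ranged from -0.099 to 0.65 in that comparison. Agk acts in mitochondria and phosphorylates acylglycerols. Among 15 other lipid phosphatases and lipin partners, 8 were compared and 0 of 8 were past 1.5-fold for Q84E over wild-type, with a median of -0.053. Ctdnep1 and Cnep1r1, the phosphatase complex that activates lipins by dephosphorylation, were at -0.054 and -0.053. Plpp6, a phosphatase of isoprenoid and presqualene diphosphates, had a level with wild-type ATP11A at least 2.16-fold above that of parental cells, at a signal of 109 against one under the floor, but its other measured probe set had a log2 ratio of -0.57.

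Genes listed under phosphatidate synthesis, a list that takes in several genes of the phospholipase D family, were near the level of all genes. Of 11 compared, 0 were past 1.5-fold for Q84E over wild-type, and their median log2 ratio was -0.013. Whether each of the 11 makes phosphatidate was not examined. Pld2, a phospholipase D that releases phosphatidate from phosphatidylcholine, was the only one past 1.5-fold in Q84E over parental cells, at 0.65 and signals of 96.7 and 61.8, and in 5 of the 7 alternatives 0 genes of this list were. A list of other uses of phosphatidate takes in later steps on the route to phosphatidylinositol and cardiolipin, so not all its genes use phosphatidate itself. Of these genes, 7 were compared and 6 lay below 0 for Q84E over wild-type. The median log2 ratio of the 7 was -0.15, beside 0.046 over all compared genes, and 0 of 7 were past 1.5-fold in any comparison. The share of all compared genes below 0 was not computed. Crls1, cardiolipin synthase, had 3080.5, 2723 and 2366 in parental, wild-type and Q84E cells, and Cdipt, phosphatidylinositol synthase, had 3228, 2916 and 2625. Neither is past 1.5-fold, and both ran in the same order as Plpp1.

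Effectors of diacylglycerol, the proteins whose signal the kinases end, held 3 of the 4 listed genes past 2-fold for Q84E over wild-type. Of 13 compared, 3 were at least 2-fold and 5 at least 1.5-fold higher in Q84E than in wild-type ATP11A cells, beside 1.03% and 5.78% of all genes, with 0 at least 1.5-fold lower, and their median log2 ratio was 0.29. For wild-type over parental the median was -0.26, with 1 gene at least 1.5-fold higher and 3 lower, beside 3.51% and 3.56% of all genes. For Q84E over parental 4 were at least 1.5-fold higher, beside 7.36% of all genes, and 2 of them 2-fold, beside 1.63%. At least 1.5-fold lower were 3, beside 2.94%, and the median was 0.12. Past 2-fold were Prkcq, the protein kinase C theta of T cells, at 1.16 and signals of 348 against 156, Rasgrp1, an activator of Ras, at 1.02 and signals of 349 against 172, and Rasgrp4, which was at least 2.43-fold higher at a signal of 123 in Q84E cells against one under the floor. These are dim genes: among those reaching the 75th percentile on at least 1 array, 0 effectors were past 2-fold, and under a common median 2 were. Rasgrp4 reached the floor in Q84E cells alone. It was thus compared only through the array where it was high, and in the counts above it could only be higher in Q84E cells. The 4 probe sets of Rasgrp1 ranged from 0.14, a pair of floor values, to 1.23. Prkch, protein kinase C eta, gave 169, 273 and 439.5 in parental, wild-type and Q84E cells, the same order as Dgka, at log2 ratios of 0.69 for each step.

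Upstream, 5 phospholipase C genes were compared and 0 were past 1.5-fold for Q84E over wild-type. Their median there fell on a gene under the floor on both arrays and is not given. Plcl2, a phospholipase C-like protein without catalytic activity, had signals of 561 in parental, 521 in wild-type ATP11A and 369 in Q84E cells. Of 12 compared genes for other steps of diacylglycerol metabolism, 1 was past 2-fold for Q84E over wild-type, and the median of the 12 was -0.022. It was Sgms1, which makes diacylglycerol together with sphingomyelin, at signals of 157 in wild-type ATP11A and 1977 in Q84E cells. The 4 probe sets of Sgms1 ranged from 0.33 to 4.32 on the log2 scale in that comparison. The lysophosphatidate list had 4 genes compared and 0 past 1.5-fold in any comparison. One of the 4, Lipa, is lysosomal acid lipase, which hydrolyses cholesteryl esters and triacylglycerol and is no lysophosphatidate enzyme. Lpar6, a lysophosphatidate receptor, gave 2151, 1991 and 2908 in parental, wild-type and Q84E cells, at a log2 ratio of 0.55 for Q84E over wild-type. Its lowest array was that of wild-type ATP11A cells and its highest that of Q84E cells, as for Plpp3.

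**Figure D4:**
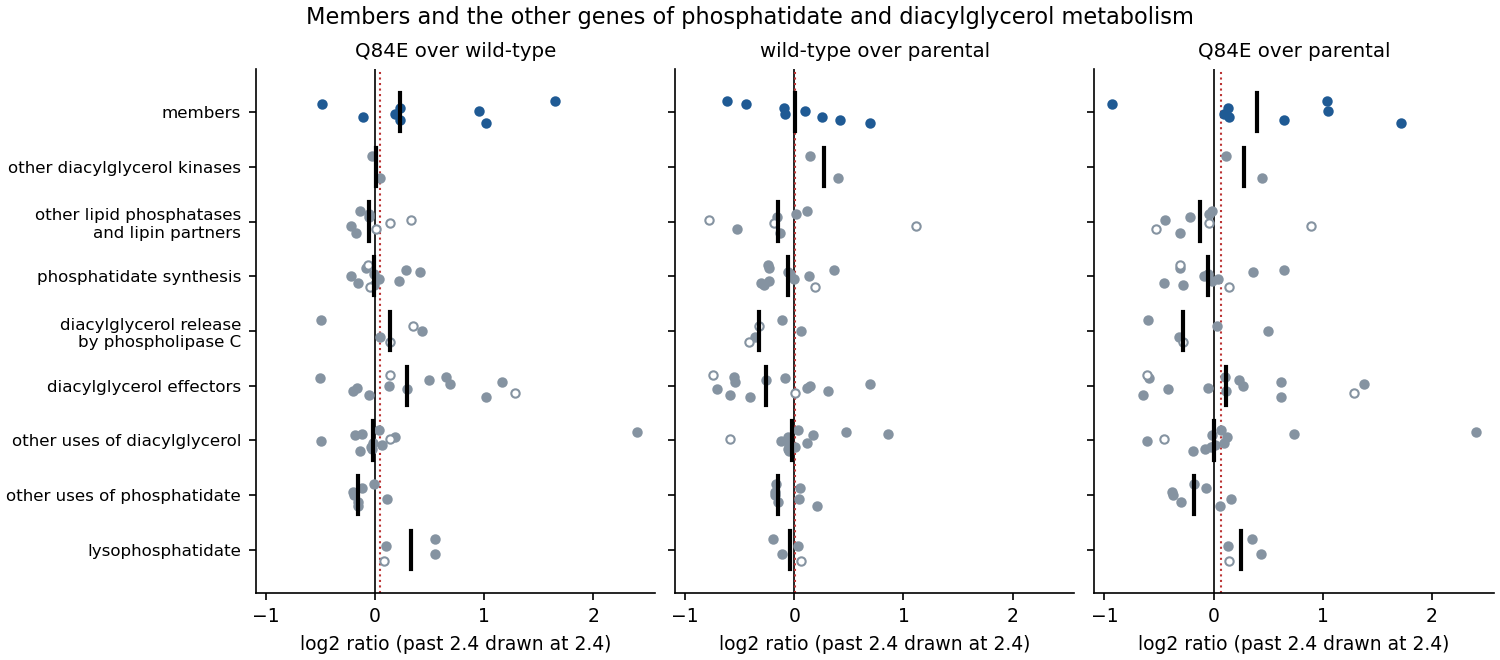
Log2 ratio of each compared gene of the members (blue) and of 8 lists of related genes (grey) in the 3 comparisons, with a black bar at each median, a dotted line at the median of all compared genes and open points where a level lay under the floor. The members spread from -0.48 to 1.65 for Q84E over wild-type, and only the diacylglycerol effectors and Sgms1 hold other genes past 2-fold there.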

How the data were processed

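The 3 arrays were 1 each of parental WR19L, DKO with wild-type human ATP11A and DKO with Q84E ATP11A cells, grouped by the genotype or title in the labels. The authors deposited linear array intensity, 1 signal per probe set, made with MAS5 as named in the submitters' processing notes, whose version is not given in the sources used here. Leaving out 2% at each end, the mean was 500.0 on each array, so each had been scaled by a single factor, which was kept. Such scaling can partly hide a shift of many genes in the same direction. Probe sets were named from the platform's annotation: 34958 had 1 gene symbol, 932 several and 9211 were unlisted and stay unnamed here. Of the named ones 34754 matched RefSeq genes and 0 symbols differed.

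From the deposited signals, log2 levels, floors and ratios were computed with Python 3.11.15, numpy and pandas. Ratios with a level under the floor are bounds. The steps were tested on simulated data. The members, lists, motifs and figures were chosen with earlier results of these data known. All 9 members were named by rule. In each list, up to 3 genes with the largest ratio past 2-fold, or past 1.5-fold where none passed, were named, and those of any count of 5 or fewer. Dgkh, Agk, Ctdnep1, Cnep1r1, Crls1, Cdipt and Lpar6 were added after their values were seen. The 5 genes most like the member with the widest range were also named by rule. Alternatives were another scaling, floor or filter and another choice of probe set.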

Additional observations from a re-analysis of the deposited data

Results flagged for a closer look

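Plpp3 lay on opposite sides of the parental level in the 2 transgenic lines. Its log2 ratio over parental cells was -0.61 in wild-type ATP11A cells and 1.04 in Q84E cells, each past the probe set SD of 0.18 and 0.19, and its dimmer probe set gave -0.46 and 1.14. The difference was not tested, since there is 1 array per group, and both ratios use the same parental array.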

How the results depend on the processing

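No paired analysis was possible because there is 1 array per group and the labels give no replicate numbers. Of 165 single-gene ratios recomputed under 7 alternatives, 154 moved by less than the probe set SD, 11 moved by more and 0 ratios past 1.5-fold changed sign. Many of the 154 could not move. Another floor or filter, or leaving out _x_at and _s_at probe sets, returned the same ratio for each member but Plpp1. Plpp3 stayed between 1.52 and 1.65 on the log2 scale for Q84E over wild-type, Dgka between 0.88 and 1.04 and Lpin1 between 0.82 and 0.95. Only the scaling could change Dgka, which has 1 probe set, and only the scaling and the mean of all probe sets changed Plpp3 and Lpin1. With a common median the members at least 2-fold higher were 1 for Q84E over wild-type and 1 for Q84E over parental, against 2 and 3. With a common median and with quantile normalization, 1 member was at least 2-fold lower for Q84E over parental and 1 at least 1.5-fold lower for Q84E over wild-type, against 0 and 0; this member was Plpp1. With the filter at the 75th percentile, which removes Plpp1, with the mean of all probe sets and without _x_at and _s_at probe sets, 0 members were at least 1.5-fold lower for Q84E over parental, against 1. The median for Q84E over parental was 0.65 with that filter. With the mean of all probe sets the median for Q84E over wild-type was 0.69 and 1 member, Lpin2, was at least 2-fold lower for wild-type over parental, since its dimmest probe set had a signal of 0.572 on the wild-type array; its ratio of Q84E over wild-type was then 1.71. The mean also turned Plpp1 to 0.14 for Q84E over wild-type, which is the difference between the floors. Signals under the floor limit Lpin2 and Plpp1. Alternatives for the lists of related genes were added after seeing the data: effectors at least 2-fold higher for Q84E over wild-type numbered 0 to 4 over the 7 alternatives, against 3, and 2 with quantile normalization.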

Other observations

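A pair of dim probe sets, 1 of Lpin2 and 1 of Plpp1, lay under the floor on all 3 arrays and entered no comparison. That of Lpin2 was listed at 31.2, 0.572 and 38.8 in parental, wild-type and Q84E cells, and that of Plpp1 at 32.8, 1.06 and 32.9. Both were lowest on the wild-type array, at levels that have no order under the floor.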
